A study of Mus musculus with 12 samples.

Results

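Transferred CD4 T cells that had stayed conventional were compared with conventional CD4 T cells of the host that received them, by the regions of open chromatin that ATAC-seq peak lists record in each. The comparison used 4 of the 12 deposited libraries and 173058 of their 496365 peaks. Overlapping peaks of the 4 lists (1 bp or more in common) gave 51628 merged regions. Of these, 2299 had a peak in both donor libraries and in neither host library, 298 had a peak in both host libraries and in neither donor library, and 33794 had a peak in all 4. The remaining 15237 regions split the replicates of at least 1 group.

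The donor cells carried the 6.5TCR transgene, a T cell receptor specific for the influenza hemagglutinin (HA), and were sorted 14 days after transfer from bone marrow as CD45.1-CD45.2+CD3+CD4+CD25- (donor Tconv below). The host cells were sorted as CD45.1+CD45.2-CD3+CD4+CD25- (host Tconv). Hosts are called Aire-HA in the series' description, Aire-HCO in the library names and WT in the titles, so their exact genotype cannot be settled from the labels. All libraries are labelled Balb/c. The remaining 8 libraries, used below to follow the differing regions, held CD25+ regulatory cells: converted donor cells sorted on LAP (donor Treg), host cells sorted on CTLA4, either lacking Nrp1 (host pTreg) or carrying it (host tTreg), and cells induced in culture (iTreg). The groups compared differ in receptor, transfer, origin and CD45 allele together, and these cannot be told apart. The labels do not say whether the replicates came from separate animals.

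A conventional CD4 T cell that meets its antigen opens enhancers bound by AP-1, NFAT and NF-kappaB and, with time, those of effector, memory or anergy programs. The same signals together with IL-2 and TGF-beta can induce Foxp3 and turn the cell into a peripheral regulatory T cell. ATAC-seq marks open DNA by the insertion of a transposase, and a peak is a stretch where insertions exceed the local background. The lists give the position and width of each peak, with no height. A missing peak is therefore a missing call and not a measure of closed chromatin.

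Markers of the sorted cells were checked first, at the start sites the reference table holds. Peaks covered the annotated start of Cd3e (a CD3 chain) with 1830 and 1774 bases in donor Tconv and 1749 and 1839 bases in host Tconv, and those of Cd5 and Lck in all 4 libraries. No start site of the CD8, NK, B cell, erythroid or stem cell markers had a peak in any of the 4 libraries (1, 3, 3, 4 and 4 start sites in the table). Among myeloid markers 1 of 5 start sites had a peak, in every library (Itgam, 362 to 437 bases), and among plasma cell markers Sdc1 had one in both donor libraries and host replicate 2. Their part in the results below was not tested. Lists also omitted broad peaks at T cell genes. The start of Bcl11b had 2764, 2731 and 2808 bases in the other libraries and no peak in host replicate 1, that of Cd3d had none in donor replicate 1, and that of Zbtb7b had none in donor replicate 1 or host replicate 2. In 30 regions the other 3 libraries each had at least 1000 bases and host replicate 1 had none. The same occurred in 9 regions for donor replicate 1, in 5 for donor replicate 2 and in 8 for host replicate 2.

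List length differed within the host pair. The donor libraries held 47193 and 44350 peaks (45771.5 ± 2010, SD, n = 2) and the host libraries 37050 and 44465 (40757.5 ± 5243). The groups overlapped, and the difference in peak number did not exceed the spread between replicates (two-sided exact permutation test, p = 0.6667; with 2 libraries against 2 it cannot go below 1 in 3). Covered sequence was 33.22 and 30.2 Mb in the donor libraries against 23.43 and 32.95 Mb in the host libraries. Host replicate 1 alone lacked a peak in 5198 regions that the other 3 libraries had, whereas host replicate 2 alone lacked one in 410. The Jaccard index of the host pair was 0.77, below that of donor replicate 2 with host replicate 2 (0.825) and below that of the donor pair (0.852).

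Donor-only regions made up 4.45% of all merged regions and host-only regions 0.577%. This ratio moved most without host replicate 1, when 2709 regions had a peak in both donor libraries and not in the remaining host library, and 2314 the reverse. Leaving out a library also eases the rule, since 1 list then stands for its group, and every such count rose: to 3564 and 843 without donor replicate 1, 5226 and 501 without donor replicate 2, and 7542 and 700 without host replicate 2. With every list shortened to its 37050 widest peaks, the length of the shortest list, the counts were 1169 and 885, and 610 of the 2299 donor-only and 205 of the 298 host-only regions stayed in their set. The host-only share of differing regions thus went from 11.5% to 43.1%, and to 46.1% without host replicate 1. Outside the stretch of chromosome 1 around the CD45 gene described below, the counts were 2220 donor-only (4.39% of 50616 regions) and 268 host-only (0.529%). The presence or absence of a peak was given no test per region, and the differing regions below are descriptions of these 4 lists.

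Differing regions were narrow and mostly distal. Their median width was 275 bp in donor-only and 344 bp in host-only regions, against 774 bp in regions with a peak in all 4. The 15237 regions that split replicates had a median of 263 bp and start sites in 1.82%. Neither trait was thus particular to the differing sets. Annotated start sites of protein-coding genes lay in 56 donor-only regions (2.44%) and in 9 host-only regions (3.02%), against 24.3% of the regions in all 4. Gene bodies held 46.8% of donor-only and 69.5% of host-only regions, and 18.0% and 6.71% lay more than 50 kb from any gene end. These shares were 64.7% and 7.15% for regions in all 4, and 57.7% and 11.5% for regions that split replicates. A peak of the other group lay within 100 bp of 15 donor-only regions (0.652%) and 0 host-only regions, and within 1 kb of 334 (14.5%) and 59 (19.8%). At least 500 bases in each library of the group were covered in 104 donor-only and 28 host-only regions. At 1000 bases or more, 11 regions were missing from both host lists and 3 from both donor lists, beside the omissions from single lists given above.

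Start sites with a peak in one group alone are shown first, 2 for each group, with their sequence. They were picked after their values had been seen. Gna15, which encodes a Gq-class alpha subunit of heterotrimeric G proteins in blood cells, had a region at its start with 1072 and 992 bases in donor Tconv and none in host Tconv (chromosome 10, 81523586 to 81524674). Srxn1 (sulfiredoxin, an enzyme that repairs oxidised peroxiredoxins) had 298 and 278 bases in donor Tconv alone (chromosome 2, 152105381 to 152105713). Il4, the signature cytokine gene of type 2 helper cells, had 226 and 457 bases in host Tconv alone, at an annotated start inside the gene body (chromosome 11, 53617168 to 53617624). Slc9a9, a sodium-proton exchanger of endosomes, had 844 and 1084 bases in host Tconv alone (chromosome 9, 94669588 to 94670671). The Gna15 and Srxn1 regions had a peak in all 8 regulatory libraries. The Il4 region had one in both host pTreg libraries and in no other regulatory library. The Slc9a9 region had one in 1 host pTreg, both host tTreg and both iTreg libraries and in neither donor Treg library. The 250 bases before each start site follow, 5′ to 3′ on the gene's strand, as RefSeq gives them for the GRCm38.p6 assembly of the C57BL/6J strain, not the strain of these mice. Capitals mark the letters GGAAA or its reverse complement, the core that NFAT and Ets factors bind, and TGANTCA, which is its own reverse complement and the core of the AP-1 site. The windows lie at chr10:81524226-81524475 on the minus strand for Gna15, chr2:152105274-152105523 on the plus strand for Srxn1, chr11:53617339-53617588 on the minus strand for Il4 and chr9:94669642-94669891 on the plus strand for Slc9a9.
Gna15: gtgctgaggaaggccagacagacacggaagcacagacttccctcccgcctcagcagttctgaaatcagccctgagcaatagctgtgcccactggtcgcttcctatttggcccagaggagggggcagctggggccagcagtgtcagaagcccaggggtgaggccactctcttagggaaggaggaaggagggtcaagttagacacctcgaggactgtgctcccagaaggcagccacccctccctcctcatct
Srxn1: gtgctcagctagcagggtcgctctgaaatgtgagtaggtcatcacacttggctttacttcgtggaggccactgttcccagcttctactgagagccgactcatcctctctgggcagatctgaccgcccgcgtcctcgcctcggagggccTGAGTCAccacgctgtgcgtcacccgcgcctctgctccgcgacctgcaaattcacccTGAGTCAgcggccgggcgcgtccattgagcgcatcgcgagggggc
Il4: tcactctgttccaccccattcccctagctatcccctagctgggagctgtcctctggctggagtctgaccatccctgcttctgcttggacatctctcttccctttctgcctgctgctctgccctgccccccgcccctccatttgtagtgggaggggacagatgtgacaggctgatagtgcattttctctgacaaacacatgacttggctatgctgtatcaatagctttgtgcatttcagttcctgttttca
Slc9a9: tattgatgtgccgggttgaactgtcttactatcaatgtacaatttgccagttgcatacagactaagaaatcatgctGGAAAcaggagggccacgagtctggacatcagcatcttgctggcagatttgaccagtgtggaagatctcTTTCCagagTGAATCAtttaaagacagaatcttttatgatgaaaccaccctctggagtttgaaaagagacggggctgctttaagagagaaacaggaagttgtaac

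The Srxn1 window held 2 TGANTCA matches, 143 of its 250 bases lying inside the donor-only region, and the Slc9a9 window held 1 TGANTCA and 2 GGAAA matches. Gna15 and Il4 held neither motif in these windows. Over the windows whose start site lies in a donor-only region, 9 of 59 (15.3%) held TGANTCA, against 1303 of 21237 windows (6.14%) over all protein-coding start sites of the table. Over host-only regions it was 1 of 9 (11.1%). GGAAA was found in 34 of 59 (57.6%) and 5 of 9 (55.6%), against 54.6% of all. A match describes letters only and was given no test. The other donor-only start sites with TGANTCA were those of Chit1, Mctp1, Muc13, Agbl2, Atp8b4, Fcrl1, Orm3 and Smim14.

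Further start sites, also picked after their values had been seen, had peaks in one group alone. In donor Tconv they included Zfp296 (849 and 843 bases), the shared start of Nudt22 and Trpt1 (665 and 690 bases), and Il12a, the p35 chain of IL-12 and IL-35, with 545 and 478 bases (chromosome 3, 68691217 to 68691867). The Il12a region had a peak in 1 host pTreg and 1 host tTreg library and in no donor Treg or iTreg library. Narrower donor-only regions lay at other start sites. Mt1, a metallothionein, had 351 and 323 bases at its start and a peak in all 8 regulatory libraries, and Spp1, the gene of osteopontin, had 233 and 194 bases. In host Tconv, Dmwd had 741 and 821 bases at its start, Tlcd2 552 and 549, Bscl2, the gene of seipin, 525 and 532, and Ms4a6c 423 and 777.

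At T cell genes, as over all regions (2299 donor-only against 298 host-only, and 1169 against 885 with equal list lengths), most differing regions were donor-only. Foxp3, the lineage factor of regulatory T cells, had 3 regions assigned to it, of which 1 was donor-only, with 391 and 431 bases (chromosome X, 7583919 to 7584352, in the gene body). It had a peak in all 8 regulatory libraries. At the other Foxp3 regions (7586325 to 7586875 and 7587485 to 7587871) each of the 4 conventional libraries held a peak. None of the 6 in vivo regulatory libraries did. Of the iTreg libraries, replicate 2 alone had one, with 496 bases at 7586325 to 7586875. A further donor-only region with 248 and 209 bases crossed the end of Foxp3 and was assigned to its neighbour Ccdc22, in whose body its midpoint lay. Ctla4, an inhibitory receptor, had a donor-only region of 562 and 476 bases with a peak in all 4 host regulatory libraries and in no donor Treg library. Ikzf2, the gene of Helios, had one at the minimum width of 150 bases in both donor libraries, also present in all 6 in vivo regulatory libraries. Cd44, an adhesion receptor that marks antigen-experienced T cells, had a donor-only region with 492 and 494 bases (chromosome 2, 102851994 to 102852489). It had a peak in both donor Treg and both iTreg libraries and in no host regulatory library. Il2ra, whose product CD25 both gates exclude, had 7 regions and none that differed. Foxp3, Ctla4 and Cd44 kept a net of 1 with equal list lengths; Ikzf2 had 0, and Cd44 had 0 without either host library.

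Master factors and cytokines of helper lineages followed. Tbx21 (T-bet, the Th1 factor) had donor-only regions inside the gene with 277 and 287 bases and with 318 and 326 bases, and none in the host. Both had a peak in both host pTreg libraries and in 1 host tTreg library, and in neither donor Treg library. Maf, which drives IL-10 and IL-21 in several helper lineages, had donor-only regions with 191 and 252 bases and with 286 and 280 bases. Ifng, the Th1 cytokine gene, had 355 and 399 bases in one region and 380 and 188 in another. Ccr6, a chemokine receptor of Th17 cells, had 474 and 525 bases and 232 and 188 bases. Ahr, the aryl hydrocarbon receptor, had 205 and 236 bases and 300 and 240 bases, both with a peak in all 8 regulatory libraries. Il1rl1, the IL-33 receptor, had regions of 150 to 190 bases. With equal list lengths Tbx21 kept its net of 2, Maf, Ifng, Ccr6 and Ahr had 1, and Il1rl1 had 0.

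**Figure D1:**
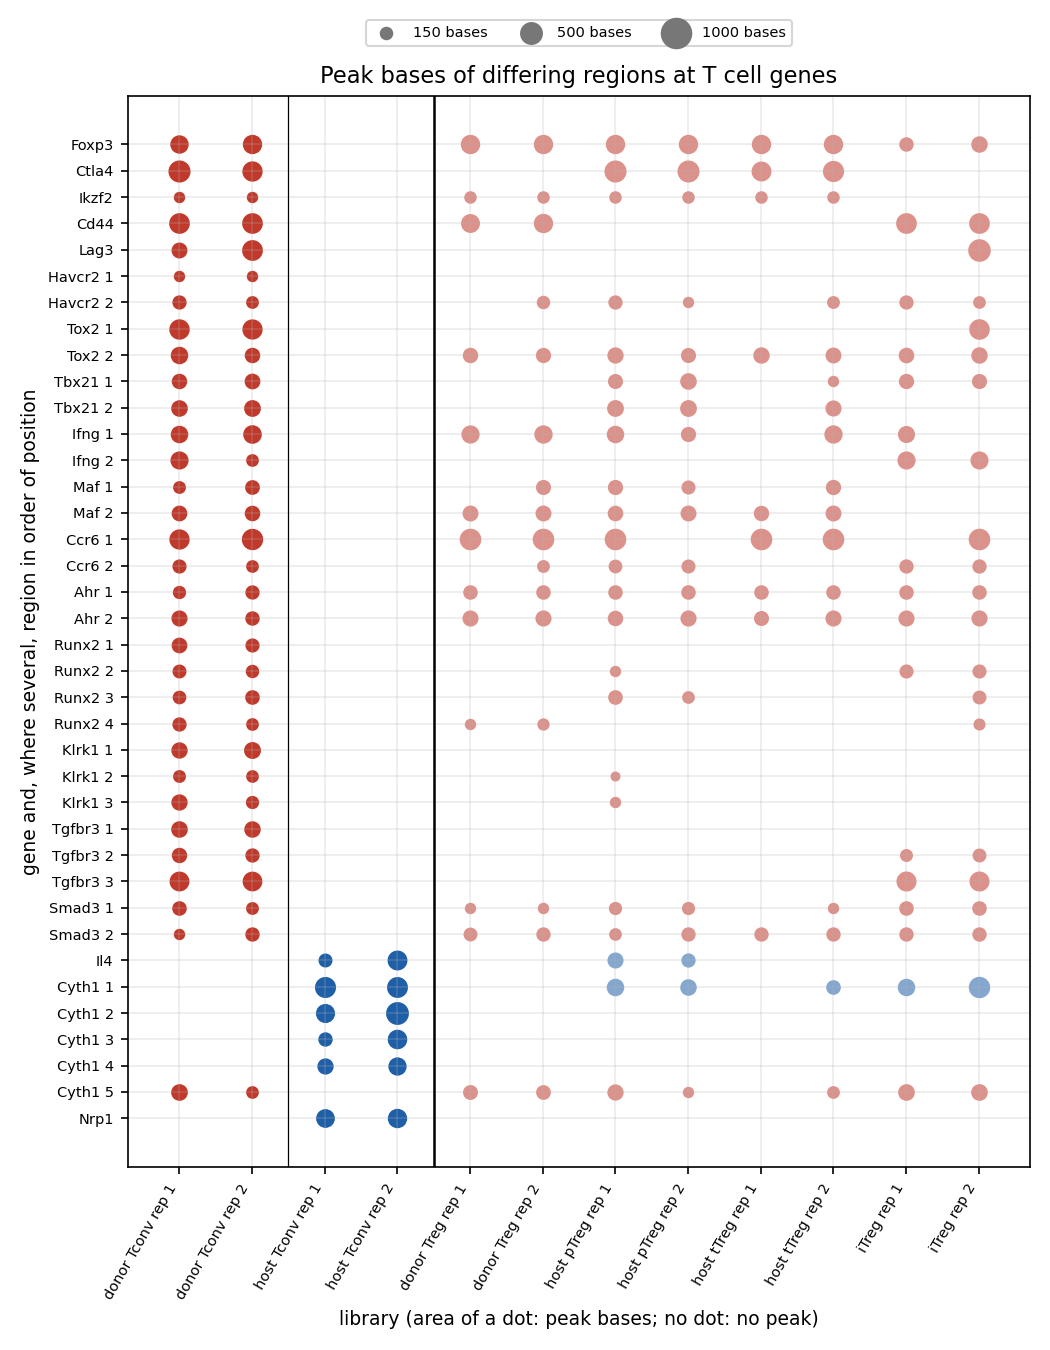
Bases covered by peaks in each differing region of selected T cell genes (rows) in the 4 conventional and 8 regulatory libraries (columns); the area of a dot is proportional to the bases, and red and blue mark donor-only and host-only regions. The red Foxp3 row has a dot in all 8 regulatory libraries, whereas rows 2 to 4 of Cyth1 have none.

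Some receptors and regulators of activated and anergic T cells had donor-only regions, here of 150 to 499 bases. Donor-only regions outnumbered host-only ones at 12 of the 20 genes of the anergy and exhaustion list. In the TCR activation list this held for 4 of 20 genes, and over all genes with a region for 1564 of 14074. A gene with more regions reaches a net of 1 more easily. The anergy list held 198 regions and the TCR activation list 141, against 47033 over the 14074 genes. The number of regions per gene was not adjusted for. Havcr2, Tox2 and Fosl2 are named because each had a net of 2. Havcr2, the gene of TIM-3, had donor-only regions with 150 and 150 bases and with 235 and 189 bases. Tox2 had 481 and 473 bases and 354 and 277 bases, and kept its net of 2 with equal list lengths. Lag3 had 293 and 499 bases. Klrk1, the gene of the NKG2D receptor of NK and CD8 T cells, had 3 donor-only regions among 4 with 187 to 331 bases, and a net of 1 with equal list lengths. Runx2 had 4 donor-only regions among 15, with 188 to 285 bases, and a net of 0 with equal list lengths. Fosl2, an AP-1 subunit, had 192 and 233 bases and 203 and 192 bases, and likewise a net of 0.

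Among genes of TGF-beta signalling, Tgfbr3, the co-receptor betaglycan, had 3 donor-only regions of 27, with 454 and 449, 319 and 314, and 274 and 236 bases. None of these had a peak in an in vivo regulatory library. Smad3, a signal transducer of the receptor, had donor-only regions with 246 and 191 bases and with 150 and 238 bases, and Tgif1, a Smad co-repressor, had 221 and 150 bases and 318 and 150 bases. With equal list lengths the net was 2 at Tgfbr3 and 0 at Smad3 and Tgif1. Erg, an Ets factor of progenitors, had donor-only regions of 317 and 351 and of 357 and 277 bases and kept its net of 2.

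Of the 18 genes of the naive and quiescence list, 6 had donor-only regions: Foxo1 (2, and 1 host-only), Lef1, Klf2, Ets1, Btg1 and Btg2 (1 each). Tcf7 had 10 regions and Bach2 41, and none of them was in either differing set. Lef1 had 1 donor-only region with 240 and 232 bases, which was lost with equal list lengths. Nrp1, a marker of thymic regulatory T cells, had 1 host-only region with 405 and 433 bases among 23 regions. Its net of -1 became 1 without either donor library, and 2 without host replicate 2.

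Read as lists, the anergy and exhaustion genes had 14 donor-only regions of 198 (7.07%, against 4.45% of all regions) and 1 host-only region. In this list 12 of 20 genes had more donor-only than host-only regions (median net 1 per gene) and 1 gene, Nrp1, the reverse. The effector and memory list had 10 and 0 of 152 regions (6.58% donor-only), of which Runx2 gave 4 and Maf 2. The Th17 list had 5 and 0 of 38 (13.2%), from Ccr6, Ahr and Il17a. The TGF-beta and Smad list had 9 and 0 of 133 (6.77%), the Treg core list 7 and 2 of 141 (4.96%), and the TCR activation list 6 and 1 of 141 (4.26%). The naive and quiescence list had 7 and 1 of 317 (2.21%), the pan-T and CD4 lineage list 2 and 1 of 191 (1.05%), the bone marrow homing list 2 and 0 of 99 (2.02%), and the IL-2 receptor and STAT5 list 2 and 0 of 78 (2.56%). The Th1 list had 4 and 0 of 95, the Th2 list 2 and 1 of 37, and the Tfh list 3 and 0 of 62. Over all 14074 genes with a region, 1564 had a net of 1 or more to the donor and 205 to the host. These genes held 47033 regions, fewer per gene than the anergy and exhaustion list, so the counts of genes are not alike. With equal list lengths the anergy and exhaustion list held 9 and 1, and the effector and memory list 7 and 0. The TGF-beta and Smad list held 3 and 3, the TCR activation list 1 and 1, and the naive and quiescence list 7 and 3. Without host replicate 1 these lists held 16 and 7, 10 and 4, 10 and 9, 8 and 5, and 13 and 4. Over all regions the counts were 1169 and 885 of 42973 with equal list lengths (2.72% and 2.06%). Without host replicate 1 they were 2709 and 2314 of 51259. The shares of each list under these settings were not computed. The lists share genes, and no list was tested.

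Lists of other cell types also held donor-only regions, given here beside the T cell lists. CD8 T cell genes had 6 donor-only and 1 host-only of 46 regions (13.0% donor-only), NK genes 4 and 0 of 49 (8.16%), both including the 3 of Klrk1. B cell genes had 3 and 0 of 20 (the highest donor-only share of the 20 lists, 1 each at Pax5, Ebf1 and Cd22), plasma cell genes 1 and 0 of 29 (3.45%), stem and progenitor genes 2 and 0 of 32 (6.25%, both at Erg), and myeloid and erythroid genes 0 and 0 of 38 and of 12. Shares above 4.45% thus occurred in lists of other cell types as well as in T cell lists. Their part in the T cell results was not tested.

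Genes with the largest net number of donor-only regions outside the chromosome 1 stretch were mostly not T cell genes by name. Ctnnd2, the gene of delta-catenin, had 5 donor-only regions of 10, with 227 to 637 bases, and none of the 5 had a peak in an in vivo regulatory library. Xpo6, the exportin of actin, had 5 of 15, and 1 without host replicate 1. Ankrd55 and the Arf GTPase activator Asap1 had 4 each, of 19 and 34. Rbms3, Cdh13 (T-cadherin), Hnrnpll, which controls CD45 splicing, Hipk3, Cpox, Samd4, Slc15a1 and A530021J07Rik had 3 each. Slc15a1, the peptide transporter PEPT1, kept a net of 3 with equal list lengths, Asap1 had 3, Ctnnd2 and Cpox had 2, and Hnrnpll and Hipk3 had 0. None of these genes had a host-only region.

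On the host side Cyth1 stood first. This gene encodes cytohesin-1, an exchange factor for Arf GTPases that regulates integrin adhesion. It had 4 host-only regions within 50 kb outside the gene, with 512 and 504, 421 and 603, 239 and 440, and 305 and 387 bases, and 1 donor-only region in the gene with 321 and 187 bases. Apart from the first, none of the 4 had a peak in any in vivo regulatory library. Its net of -3 was -4 with equal list lengths and -2 to -4 when single libraries were left out. Sp2, Gna12, Agtpbp1, Rybp and Zfp710 had 2 host-only regions each, with 150 to 311 bases, and Zfp710 had a net of 0 with equal list lengths. The net at Rybp became 2, in favour of the donor, without host replicate 2. Fam89b (761 and 810 bases) and Rnasek (691 and 857 bases) had 1 broad host-only region each. Apol11b, Cdo1, Dcst2, Gm536, Ap4s1, Nms and Slc7a4 had 1 each with 150 to 489 bases.

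The widest differing regions lay in part at T cell genes. In donor Tconv, a region in Ets1, a factor of T cell survival, covered 5945 and 1361 bases, so the replicates differed widely. A region assigned to Dad1 in the T cell receptor alpha locus covered 2054 and 2139 bases, 1 near Psd2 1311 and 1473, 1 near Dot1l 1410 and 1282, and 1 in Lrrc8a, a subunit of volume-regulated anion channels, 1401 and 1247. In host Tconv, an intergenic region of chromosome 10 covered 1874 and 2059 bases, 1 in Cyren 1411 and 1479, and 1 in Mid1 on chromosome X 1300 and 1544 bases. The Mid1 region had no peak in any of the 8 regulatory libraries. A region in Ubash3a, an inhibitor of T cell receptor signalling, covered 475 and 2102 bases.

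The T cell receptor loci were examined after their values had been seen, since the donor cells carry a transgenic receptor. The alpha locus (Tcra, chromosome 14, 52427967 to 54224198) holds variable and joining segments, which are cut and joined during T cell development, and a constant segment. Segments of the delta receptor, among them Trdv1 and Trdd2, also lie inside it. A donor-only region with 250 and 261 bases lay at Trdv1. Many of the other donor-only regions lay between Trdv1 and the joining segment Traj42. Of its 73 regions 17 (23.3%) were donor-only and 1 (1.37%), at Trav5-1, was host-only, against 4.45% and 0.577% of all regions. In the 6 in vivo regulatory libraries, 1 of the 17 had a peak in 1 host pTreg library and the other 5 libraries had none. Of the 19 regions of the locus that split replicates, 0 or 1 had a peak in each of these libraries. The 36 regions of the locus in all 4 conventional libraries had one in 19.4% to 47.2%, against 69.2% to 84.0% of such regions genome-wide. Few peaks in these libraries were thus not particular to the donor-only regions. The widest of the 17 lay 1.6 kb before Trac, across Traj2 and Traj1 (54217690 to 54220172). It had 2054 and 2139 bases in donor Tconv and none in host Tconv. Among the regulatory libraries, both iTreg libraries alone had a peak there. The adjoining region over Trac, the constant segment, had 3610 and 3173 bases in donor Tconv and 1087 and 3548 in host Tconv, so there the groups overlapped. The other 16 donor-only regions had 150 to 396 bases. With equal list lengths the locus had 8 donor-only and 4 host-only regions of 56, against 2.72% and 2.06% of all regions. Without host replicate 1 it had 17 and 1 of 73, against 5.28% and 4.51%. Without donor replicate 2 or host replicate 2 it had 26 and 1 of 73, when 10.3% or 15.1% of all regions were donor-only.

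**Figure D2:**
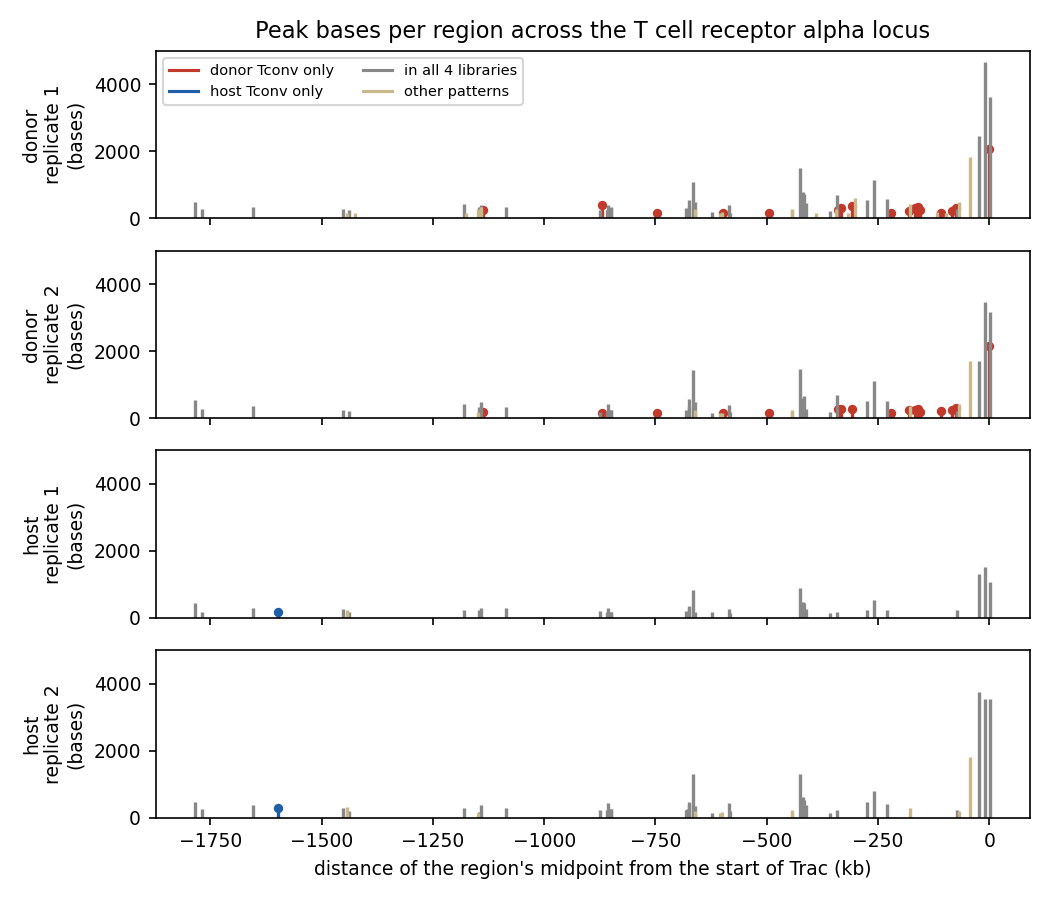
Bases covered by peaks in each region of the T cell receptor alpha locus, by distance of the region's midpoint from the start of Trac in kb, with 1 panel for each of the 4 libraries. Red lines with dots, the 17 donor-only regions, stand in both donor panels and lie mostly within 500 kb of Trac; the blue line is the host-only region at Trav5-1.

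The beta locus (Tcrb, chromosome 6, 40891296 to 41558371) had 5 donor-only (12.5%) and 2 host-only regions (5.0%) among 40, against 4.45% and 0.577% of all regions. The host-only regions lay at Trbv19 (349 and 521 bases) and at Trbv20 (213 and 332 bases). A region between these segments and Trbv21, from 41194397 to 41198268, covered 3872 and 2962 bases in donor Tconv, 297 in host replicate 1 and none in host replicate 2. Of the donor-only regions 3 were assigned to Try4, a trypsinogen gene that lies inside the locus, with 150 to 365 bases. The beta locus had 3 donor-only and 5 host-only regions of 31 with equal list lengths, against 2.72% and 2.06% of all regions. Without host replicate 1 it had 6 and 4 of 40, against 5.28% and 4.51%. Leaving out both receptor loci gave 2198 donor-only and 265 host-only regions outside the chromosome 1 stretch.

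CD45, the leukocyte phosphatase encoded by Ptprc on chromosome 1, separated donor from host cells in the sort by its CD45.1 and CD45.2 alleles. A congenic mouse carries DNA of another strain on both sides of the exchanged allele, so a stretch of chromosome 1 from 13.1 Mb before to 26.9 Mb after the start of Ptprc was counted apart. It held 1012 regions, of which 79 (7.81%) were donor-only and 30 (2.96%) host-only. On the rest of chromosome 1, 84 of 2449 regions (3.43%) were donor-only and 11 (0.449%) host-only. The host-only share of differing regions was 27.5% in the stretch and 10.8% outside it. Over whole chromosomes the host-only share was highest on chromosomes 19 (1.22%) and 1 (1.18%). With equal list lengths the stretch held 38 and 45 of 801 regions (5.62% host-only, against 2.06% of all regions under that setting), and without host replicate 1 it held 87 and 85 of 1004.

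Within the stretch the host-only regions were unevenly placed. From 15 to 20 Mb after the start of Ptprc 13 of 159 regions (8.18%) were host-only, whereas none of the 41 and 96 regions in the bins from 5 to 15 Mb was. Tor1aip2 had 3 host-only regions with 327 and 366, 150 and 394, and 278 and 317 bases. Its neighbours Fam163a and Tdrd5 had 2 each, with 150 to 404 bases and 150 to 737 bases. Ren1, a renin gene that is duplicated in some mouse strains, had 2 with 280 and 358 and with 269 and 315 bases, and Zp3r had 2 with 243 to 743 bases. All of these genes kept their net numbers with equal list lengths. On the donor side Nav1 had 4 regions, Rgs2, a regulator of G protein signalling, 3, and Ppp1r12b, Fcmr, Sox13 and Niban1 2 each. With equal list lengths their nets were 2 at Nav1, 1 at Rgs2 and Ppp1r12b and 0 at Fcmr, Sox13 and Niban1. The start of Kdm5b, a histone demethylase gene of the stretch, had 1289 and 1288 bases in donor Tconv and none in host Tconv, and a peak in 7 of the 8 regulatory libraries. Ptprc itself had 1 donor-only region with 285 and 189 bases among 20 regions.

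**Figure D3:**
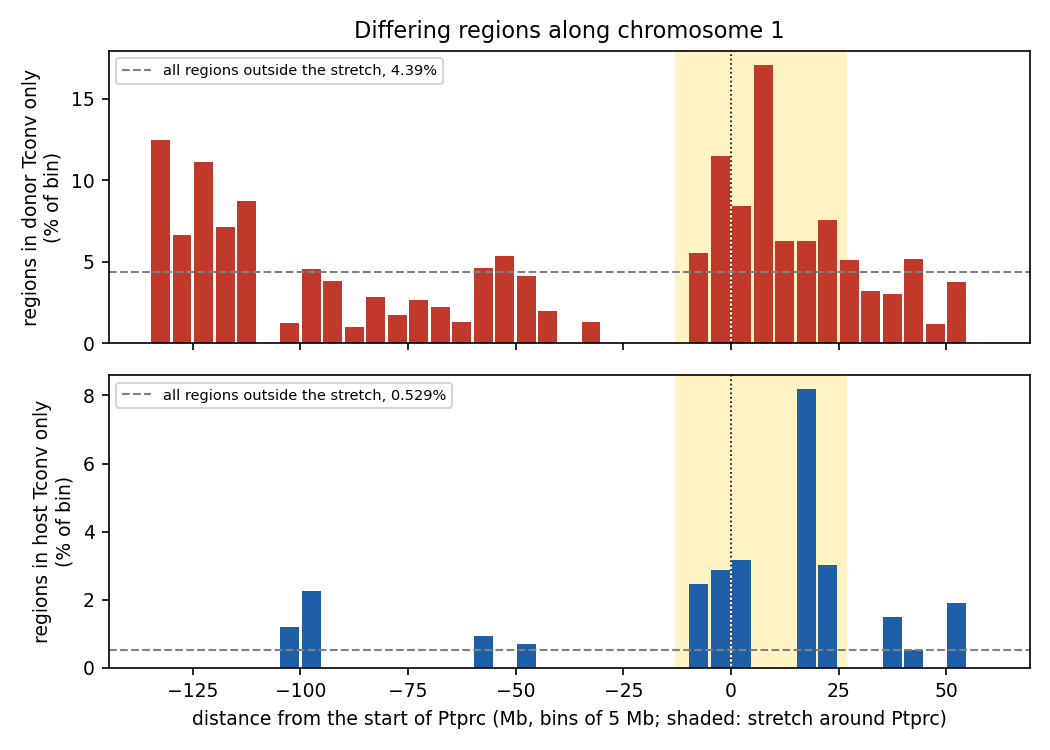
Share of merged regions in donor Tconv only (upper panel) and in host Tconv only (lower panel) per 5 Mb of chromosome 1, by distance from the start of Ptprc in Mb; shading marks the stretch and the dashed lines the shares outside it, 4.39% and 0.529%. The lower panel peaks at 8.18% in the bin 15 to 20 Mb after Ptprc.

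The differing regions were then followed in the 8 libraries that had not been used to choose them. Donor-only regions had a peak in 25.8% and 31.8% of cases in the donor Treg libraries, in 39.1% and 27.0% in host pTreg, in 20.1% and 32.8% in host tTreg and in 57.5% and 64.5% in iTreg. Host-only regions had one in 8.39% and 12.4% in donor Treg, 20.1% and 14.1% in host pTreg, 8.39% and 15.8% in host tTreg and 42.3% and 47.7% in iTreg. The share was lower for host-only than for donor-only regions in all 8 libraries, and both were below the share of all merged regions, which ran from 50.0% to 82.7%. Of the 15237 regions that split replicates, 18.3% and 22.4% had a peak in donor Treg and 29.8% and 19.4% in host pTreg. In host tTreg it was 12.9% and 24.9%, and in iTreg 58.3% and 63.6%. Donor-only shares were above these in each in vivo library and near them in iTreg, and host-only shares were below them in all 8. The libraries differ in list length and run code, so shares are compared only within a library.

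Among donor-only regions 425 (18.5%) had no peak in any regulatory library, 183 (7.96%) had one in all 8, and 561 (24.4%) in both iTreg libraries alone. Among host-only regions these numbers were 113 (37.9%), 4 (1.34%) and 72 (24.2%). All 6 in vivo regulatory libraries had a peak in 300 donor-only (13.0%) and 8 host-only regions (2.68%). Regions that followed the cells' origin were few. Both donor Treg libraries and no host regulatory library had a peak in 38 donor-only regions (1.65%). In 21 donor-only regions (0.913%) all 4 host regulatory libraries and no donor Treg library had one. The 2 patterns are not equally strict, since the first asks for a peak in 2 libraries and the second in 4. How many of all merged regions show the patterns of this paragraph was not counted, so these shares describe the differing sets only. The 38 included Cd44, 1 at Map4k2, a kinase of the stress pathway (860 and 971 bases), 1 at Pecam1 (414 and 325 bases) and 2 near Hipk3. All 4 host regulatory libraries and no donor Treg library had a peak in 2 host-only regions, in Cerk, the ceramide kinase gene (555 and 908 bases), and in Aff1 (540 and 592 bases). In the stretch, the 30 host-only regions had a peak in 3.3% of cases in each donor Treg library, 6.7% in each host pTreg library, 3.3% and 10.0% in host tTreg and 33.3% and 43.3% in iTreg. The 79 donor-only regions of the stretch had one in 40.5% and 48.1% in donor Treg and 46.8% and 35.4% in host pTreg. In host tTreg it was 29.1% and 50.6%, and in iTreg 63.3% and 69.6%. Of the 38 regions above, 0 lay in the stretch, which held 79 of all 2299 donor-only regions. With so few regions, nothing about the stretch follows from this. Map4k2, Pecam1, Cerk and Aff1 were picked after their values had been seen.

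**Figure D4:**
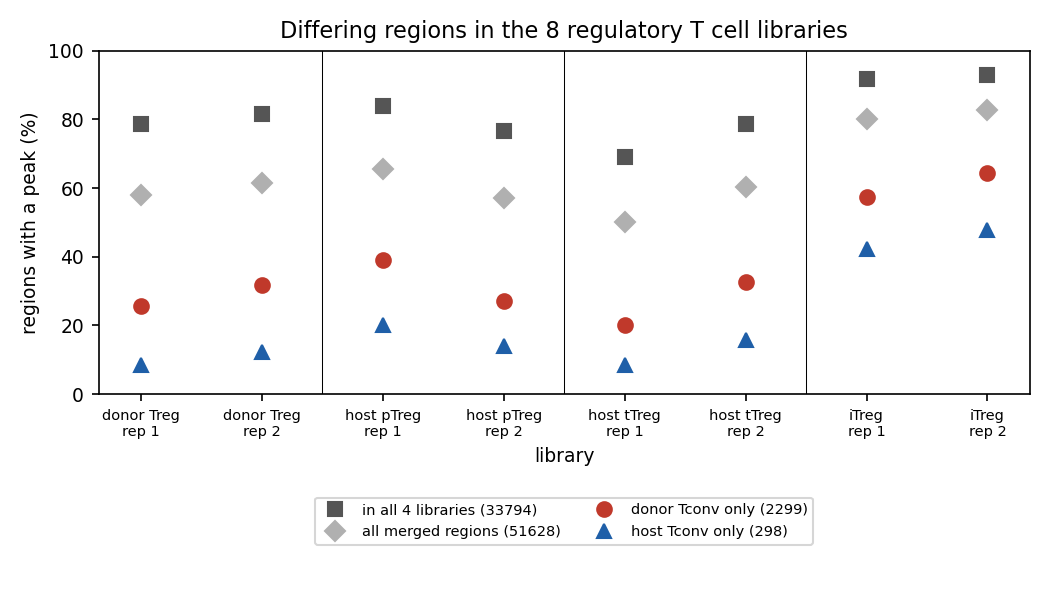
Share of regions with a peak (%, vertical axis) in each of the 8 regulatory libraries (horizontal axis) for regions in all 4 conventional libraries, all merged regions, donor-only regions and host-only regions. Blue triangles (host-only) lie below red circles (donor-only) in every library, and both are highest in iTreg.

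Regions with a peak in all 4 libraries were compared by width, a measure that the choice of the differing sets does not use. The bases covered in each of the 33794 regions were compared on a log2 scale after centring each library on its median (704 and 644 bases in donor Tconv, 499 and 700 in host Tconv), with limma's moderated test. At an adjusted p under 0.05, 42 regions (0.124%) were wider in donor Tconv and 16 (0.0473%) wider in host Tconv; 2334 had an unadjusted p under 0.05. The calls rested on the centring, since 0 were left in either direction without it and 4 and 0 with quantile normalization. The p-values measure only the spread between these libraries, which may be technical.

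A region in Sh3rf1, which encodes a scaffold of the JNK pathway, came first in the donor direction (chromosome 8, 61270052 to 61271215). It covered 1044 and 959 bases in donor Tconv and 150 and 277 in host Tconv, a log2 difference of 2.11 ± 0.20 (SE, limma adjusted p = 0.0028). In the 6 in vivo regulatory libraries it covered 1152 to 1164 bases, and in both iTreg libraries there was no peak. A region 5.19 kb from Sox4, a factor downstream of TGF-beta in T cells, covered 2228 and 2011 bases against 516 and 563 (log2 difference 1.79 ± 0.19, limma adjusted p = 0.0028), and 2257 in both iTreg libraries. The start of Prrg4 covered 1680 and 1675 bases against 428 and 616 (log2 difference 1.52, limma adjusted p = 0.0039). Regions in Stk24 and Lclat1, near Pcdh7 and Zswim4, at the starts of Tnfrsf19 (TROY, a TNF receptor family member) and Lancl3, and an intergenic region of chromosome 14 made up the first 10, with log2 differences of 1.53 to 1.87.

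In the host direction the start of Etnk2, an ethanolamine kinase gene in the stretch around Ptprc, covered 150 and 150 bases in donor Tconv and 583 and 637 in host Tconv (log2 difference -2.21 ± 0.22, SE, limma adjusted p = 0.0028). Atp2b4, a plasma membrane calcium pump gene of the same stretch, covered 150 and 150 against 510 and 611 bases (log2 difference -2.08, limma adjusted p = 0.0028). A region 17.96 kb from Cxcr4, the receptor that retains leukocytes in bone marrow and also a gene of the stretch, covered 283 and 233 against 493 and 636 bases (log2 difference -1.31, limma adjusted p = 0.02). The largest log2 difference, -2.99, was at Sp140, where host replicates covered 2350 and 966 bases against 201 and 232 in the donor. Of the first 10, 3 lay on chromosome Y, where reads of near-identical copies may be shared, so these are uncertain. The others were Gm14305, Npas2 and Sufu. In the stretch 5 of 570 tested regions (0.877%) were wider in host Tconv and 1 in donor Tconv, and in the rest of the genome 11 and 41 of 33224.

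**Figure D5:**
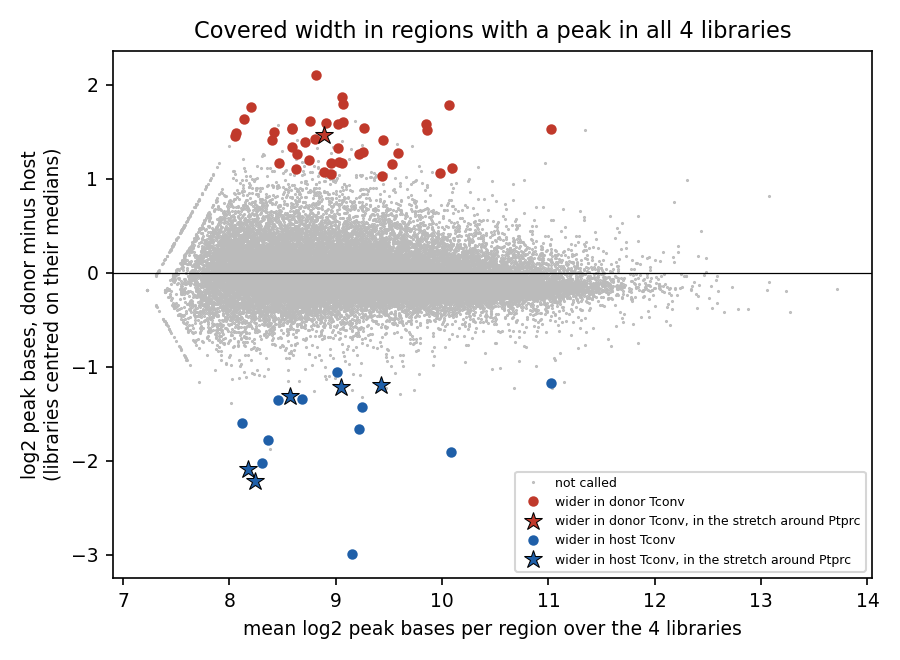
Log2 difference in peak bases, donor minus host (vertical axis), against the mean log2 peak bases over the 4 libraries (horizontal axis) for the 33794 regions with a peak in all of them; coloured points have a limma adjusted p under 0.05 and stars lie in the stretch around Ptprc. The 42 regions wider in donor Tconv lie between 1.03 and 2.11, and 5 of the 16 wider in host Tconv are stars.

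Of the regions of the T helper, anergy, effector, TGF-beta and Treg core lists (22 to 120 tested in each) 0 were called by width, against 0.124% and 0.0473% over all regions, and nothing about these lists follows from it. The 1 call among the homing genes was the Cxcr4 region, and the 1 call among erythroid genes was in Tal1 (783 and 780 bases in donor Tconv, 189 and 347 in host Tconv, limma adjusted p = 0.015). The median log2 difference was 0.04 over the 120 tested regions of the anergy and exhaustion list, 0.09 over the 86 of the Treg core list and -0.09 over the 231 of the naive list, against -0.07 over all regions tested.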

How the data were processed

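ATAC-seq libraries of sorted mouse T cells were analysed from 1 deposited peak list per library. The tools named in the submitters' processing notes are Bowtie2 (2.3.3), HOMER (4.10) and bedtools, and the build is mm10. Their roles and settings, the transposase shift and the read depth behind a list were not given in the sources used here. Besides positions and a peak name, the lists hold a score, deposited as 1000 for each peak, which ranks nothing and was not used. The deposited coordinates are the measurement. All 4 libraries compared share a run code. Numbers in the library names, 43000 and 42000 for the donor and 50000 for both host libraries, are not explained.

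Groups came from the titles. Peaks sharing at least 1 bp were merged. Regions were given to the protein-coding RefSeq gene (GRCm38.p6) that contained their midpoint or, failing that, to the closest gene end up to 50 kb away; this placed 91.1% of them. Start sites came from the RefSeq promoter table, which is not complete. Of 261 distinct genes in 20 lists, 260 matched, 1 through an older symbol. Widths were tested with limma 3.58.1 (moderated test with trend, Benjamini-Hochberg adjustment) in R 4.3.3, after a check on simulated data; the rest used Python 3.11.15. Positions count from 1.

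Genes were named by the following rules unless stated otherwise. Outside the chromosome 1 stretch they were the 15 with the largest net number of differing regions in each direction, and inside it the 6. Ties went by fewer regions, then alphabetical order. The rules also took list genes with a net of at least 2 or a differing region at a start or gene end. Further ones were 16 fixed genes (not all of which are reported here), the 10 width calls of smallest p and the 5 widest differing regions in each direction. Gna15, Srxn1, Zfp296, Nudt22, Trpt1, Il12a, Mt1, Spp1, Dmwd, Tlcd2, Bscl2, Ms4a6c and Kdm5b were picked outside these rules, after their values had been seen. The comparison, the lists and the rules were chosen with earlier results of these data known. Alternatives changed the overlap, list length, minimum width, set of libraries merged, reach, stretch bounds, centring, replicate block and libraries included.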

Additional observations from a re-analysis of the deposited data

How the results depend on the processing

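Peak lists without depth or height limit every count here: a missing peak cannot be separated from a shorter list. Donor-only and host-only regions were 4.45% and 0.577% of the merged regions, a set that each setting forms anew; they became 2.72% and 2.06% with equal list lengths, 3.85% and 0.426% with peaks of 300 bp or more, and 2.92% and 0.369% with regions merged over all 12 libraries, where the counts themselves stayed within 1.5 times. Leaving out single libraries gave 5.28% to 15.1% and 0.992% to 4.51%. The donor-only share was highest without host replicate 2 and the host-only share without host replicate 1. In the chromosome 1 stretch, 79 and 30 regions became 38 and 45 with equal list lengths and 37 and 13 with peaks of 300 bp or more, and ranged from 87 to 184 and from 37 to 85 when single libraries were left out. Merging at 100 bp shared, merging over all 12 libraries and leaving out the stretch or the receptor loci (the last chosen after seeing the data) kept the genome-wide counts of donor-only and host-only regions within 1.5 times, and so did moving its bounds for the counts of the stretch. Of the 68 named genes, 37 changed their net number by more than 1.5 times with equal list lengths, 52 with peaks of 300 bp or more, 18 with a reach of 10 kb, 4 with the merge over 12 libraries (Ifng, Tgif1, Gna12 and Foxp3) and 1, Fcmr, at 100 bp shared. With the reach of 10 kb the net was 0 at Ifng, Ahr, Smad3, Hnrnpll, Hipk3, Try4 and Lef1. It was also 0 at Nrp1, Rybp, Zp3r and Gm536, and 1 at Tgfbr3. Under that reach the Tfh list had 0 donor-only regions in place of 3. The host-only count of the beta locus went from 2 to 1 with the merge over 12 libraries. The net at Nrp1, -1, was 1, 1 and 2 without donor replicates 1 and 2 and host replicate 2, and -3 without host replicate 1. The net at Rybp went from -2 to 2 without host replicate 2, and was -1 without donor replicate 2.

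Regions wider in donor and host Tconv, 42 and 16, were 0 and 0 without centring, 4 and 0 with quantile normalization, 29 and 10 at a mean covered width of 300 bp or more, and 36 and 9 without the stretch (fewer regions tested). Leaving out single libraries gave 58 to 2402 and 36 to 2049; the lone library of an arm is then assumed to vary like the others. With the replicate block the counts were 325 and 109. Equal replicate numbers are not tied to an animal or day, and same-numbered libraries deviated with a correlation of -0.149. With a crossed replicate block, added for that reason after seeing the data, they were 663 and 252.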

Other observations

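Donor-only and host-only regions sometimes lay side by side. At 57 genes both kinds occurred, and at 11 of these the closest pair was under 5 kb apart. At Cmtm8, a chemokine-like family member, a donor-only region with 251 and 231 bases lay 0.215 kb from a host-only region with 150 and 209 bases. Near Yy1, a zinc finger factor, the donor-only region covered 1083 and 653 bases and the host-only region, 1.34 kb away, 900 and 961 bases. At Spaca6 the pair lay 0.915 kb apart, with 348 and 719 bases in donor Tconv and 255 and 400 in host Tconv. At Trpm4, a calcium-activated cation channel of T cells, it lay 0.614 kb apart, with 242 and 212 against 255 and 291 bases. These genes were picked after their values had been seen.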
